A study of Mus musculus with 6 samples.

Results

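The translation effectors of mTOR complex 1 (mTORC1) are the proteins through which this kinase acts on mRNA translation. The list held 10 genes, namely the 3 eIF4E-binding proteins (Eif4ebp1, Eif4ebp2 and Eif4ebp3), the 3 cap-binding proteins of the eIF4E family (Eif4e, Eif4e2 and Eif4e3), the p70 S6 kinases Rps6kb1 and Rps6kb2, and the translational regulators Pdcd4 and Larp1. They were matched by gene symbol in the gene-level RNA-sequencing tables, which hold 22651 genes, and 8 of the 10 were found. Rps6kb2 and Pdcd4 were not analysed here. The family was chosen on known results of this same comparison, in which Eif4ebp1 was higher in the knockout. The difference between genotypes is therefore given below as a description of each member, and nothing is supported by it. No p is printed for a member's mRNA level. Whether a member passed the threshold in the fit over all genes is given as a description too.

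mRNA was measured in telencephalon tissue of mice at postnatal day 0. All 6 mice carried the floxed Tsc1 allele on both chromosomes. The 3 WT mice were TSC1 flox/flox;Emx1 +/+ and thus kept TSC1, and the 3 TSC1-KO mice were TSC1 flox/flox;Emx1-cre/+, in which Cre recombinase is driven from the Emx1 locus. Emx1-driven Cre acts in the dorsal telencephalic lineage, which gives rise to cortical and hippocampal excitatory neurons and glia, so interneurons, most striatal neurons, vessels, microglia and blood in the same tissue keep the allele intact.

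mTORC1 is held in check by the TSC1-TSC2 complex, which turns off the small GTPase RHEB. When mTORC1 is active, it phosphorylates the 4E-BPs, which then let go of the cap-binding protein eIF4E and allow it to join eIF4G and recruit ribosomes. It also phosphorylates the S6 kinases, which act on ribosomal protein S6, eIF4B, eEF2 kinase and PDCD4, an inhibitor of the helicase eIF4A, and it acts on LARP1, a protein that holds back mRNAs beginning with a terminal oligopyrimidine tract. The steps listed for mTORC1 and the S6 kinases are controls by phosphorylation, and the values below are mRNA levels.

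The eIF4E-binding site is the part of a 4E-BP that the family is named for, and its coding sequence is shown for the 2 most abundant 4E-BP mRNAs of the knockout. The motif is a tyrosine, any 4 residues, a leucine and a hydrophobic residue, and its 7 codons are in capitals within 24 flanking bases on either side, read 5′ to 3′ on the coding strand from GENCODE transcripts of build GRCm38 (mm10).
Eif4ebp1: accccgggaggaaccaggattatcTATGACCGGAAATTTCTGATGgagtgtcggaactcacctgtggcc
Eif4ebp2: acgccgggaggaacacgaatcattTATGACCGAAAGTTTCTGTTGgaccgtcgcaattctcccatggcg
The Eif4ebp1 stretch is bases 133 to 201 of its 354 coding bases and crosses the junction of exons 1 and 2 of 3, between chr8:27260541-27273381 on the plus strand. The Eif4ebp2 stretch is bases 136 to 204 of 363 coding bases and crosses the junction of exons 2 and 3 of 4, between chr10:61435045-61452411 on the minus strand. The stretches shared 52 of 69 bases, and the motif itself 18 of 21 bases. No 50-base word of any member's GENCODE transcripts occurred in another member.

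Eif4ebp1 was the only member whose groups did not overlap in TPM. Its mRNA was at 5.92, 8.45 and 8.88 TPM (transcripts scaled to transcript length and to the library's total) in the 3 WT mice and at 51.7, 36.1 and 33.2 TPM in the 3 TSC1-KO mice. The lowest TSC1-KO mouse was thus above every WT mouse, and the group means were 7.75 ± 1.60 and 40.4 ± 9.95 TPM (SD, n = 3 each). The log2 fold change from edgeR's quasi-likelihood fit on read counts was 2.33 ± 0.23 (SE), a 5.04-fold higher level in TSC1-KO, which placed the gene at rank 12 by absolute log2 fold change among the 13969 genes that passed the filter on low counts. Eif4ebp1 (chr8:27260329-27276674, plus strand) encodes 4E-BP1.

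The reads behind these levels were few, and they are given as a description. In WT, 32, 52 and 44 reads were assigned to Eif4ebp1, with exact Poisson 95% intervals from 21.9 to 45.2 for the lowest and from 38.8 to 68.2 for the highest count. In TSC1-KO, 258, 171 and 180 reads were assigned, and the interval of the lowest count ran from 146.3 to 198.6. These intervals cover counting error only, on counts not scaled to the library totals. None of the WT intervals reached a TSC1-KO interval. Since Eif4ebp1 was known to be higher when the family was chosen, nothing is supported by this.

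**Figure D1:**
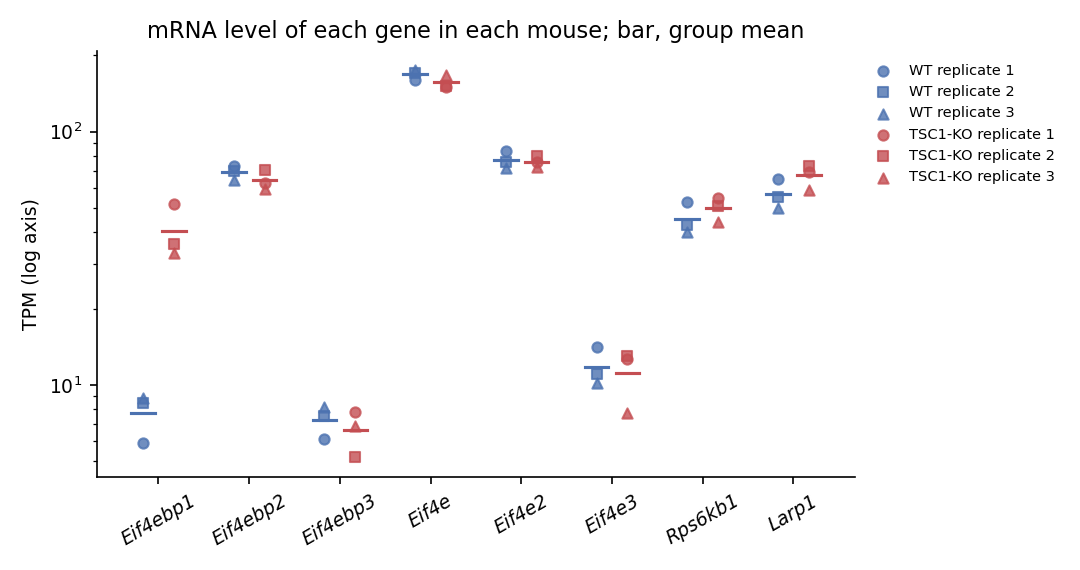
mRNA level in TPM (vertical log axis) of the 8 translation effectors in each of 3 WT (blue) and 3 TSC1-KO (red) mice, where symbols mark the replicate and short bars the group means. Eif4ebp1 is the gene whose groups stand apart, at 5.92 to 8.88 TPM in WT and 33.2 to 51.7 TPM in TSC1-KO, and the groups overlap for the other 7 genes.

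The groups overlapped for the other binding proteins. Eif4ebp2 (chr10:61428491-61452661, minus strand), which encodes 4E-BP2, the prevailing 4E-BP of the brain, was at 72.9, 70.1 and 64.5 TPM in WT and 62.5, 70.7 and 59.4 TPM in TSC1-KO. The log2 fold change was -0.14 ± 0.091 (SE). Eif4ebp3, which encodes the least studied of the 4E-BPs, was at 6.10, 7.56 and 8.19 TPM in WT and at 7.79, 5.17 and 6.86 TPM in TSC1-KO. Its lowest and its second highest values were both in TSC1-KO, with a log2 fold change of -0.17 ± 0.23 (SE) on 29 to 55 reads per mouse. With 1 mouse left out in turn, the value ran from -0.31 (without WT replicate 1) to -0.04 (without TSC1-KO replicate 2). Of the 50-base words in the annotated Eif4ebp3 transcript, 65.5% also occurred in an overlapping readthrough gene on the same strand, so Eif4ebp3 is uncertain. Eif4ebp2 shared no such word with another gene, and Eif4ebp1 shared 3.17%. The words are from GENCODE transcripts, which for these genes differ in length from the transcripts behind the counts. They therefore do not cover exactly the sequence that was counted.

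The make-up of the 4E-BP mRNA pool differed between the groups. Eif4ebp1 supplied 6.97%, 9.81% and 10.9% of the summed TPM of the 3 4E-BP genes in WT and 42.4%, 32.2% and 33.4% in TSC1-KO. The mean share was 9.22 ± 2.02% in WT and 36.0 ± 5.55% in TSC1-KO (SD, n = 3), 26.8 percentage points higher. Eif4ebp2 made up 79.1 to 85.9% of the pool in WT and 51.2 to 63.1% in TSC1-KO, and it was the most abundant 4E-BP mRNA in every mouse. The log2 ratio of Eif4ebp1 to Eif4ebp2 TPM was between -3.62 and -2.86 in WT and between -0.97 and -0.27 in TSC1-KO.

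In TPM, the pool was also larger relative to the mRNA of its target. The summed TPM of the 3 4E-BP genes was 85.0, 86.2 and 81.6 in WT and 122.0, 112.0 and 99.5 in TSC1-KO, and the groups did not overlap. Divided by Eif4e TPM in the same mouse, it was 0.530, 0.506 and 0.467 in WT and 0.813, 0.742 and 0.595 in TSC1-KO, a mean of 0.501 ± 0.0319 against 0.716 ± 0.111 (SD, n = 3). With Eif4ebp1 left out of the sum, the ratio was 0.493, 0.457 and 0.416 in WT and 0.468, 0.503 and 0.396 in TSC1-KO, and the groups overlapped. The shares and ratios depend on the transcript lengths used for TPM. The deposited lengths were 981 bases for Eif4ebp1, 1786 for Eif4ebp2 and 2882 for Eif4e. The longest coding transcript of each in GENCODE is longer, at 1997, 5784 and 4991 bases. Eif4ebp3 goes the other way, with a deposited length of 1151 bases against 744 in GENCODE. The fold change of a single gene does not depend on these lengths. With reads in place of TPM, the difference in share was 18.5 percentage points and the difference in the ratio 0.0701, against 0.215 in TPM. In reads the groups overlapped in this ratio, as TSC1-KO replicate 3 lay below WT replicate 1.

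**Figure D2:**
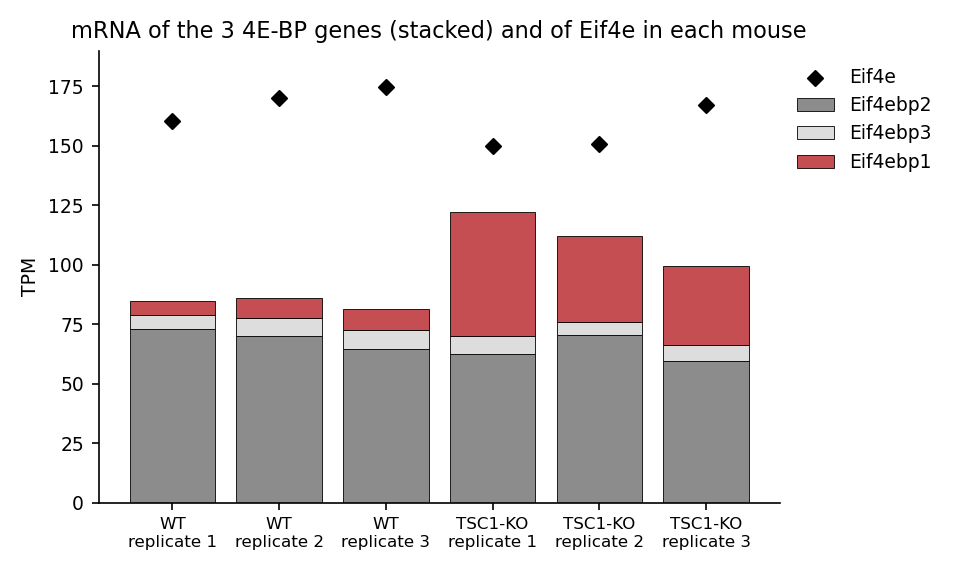
Stacked bars give the TPM of Eif4ebp2 (dark grey), Eif4ebp3 (light grey) and Eif4ebp1 (red) in each of the 6 mice, and black diamonds the TPM of Eif4e in the same mouse. The bars reach 81.6 to 86.2 TPM in WT and 99.5 to 122.0 TPM in TSC1-KO, with the red part making up the gain, while the diamonds lie between 150.2 and 174.7 TPM over both groups.

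The groups overlapped for the 3 cap-binding proteins. Eif4e (chr3:138526179-138559696, plus strand), the cap-binding subunit of the initiation complex and the protein the 4E-BPs hold, was at 160.3, 170.1 and 174.7 TPM in WT and at 150.2, 151.0 and 167.3 TPM in TSC1-KO. One TSC1-KO mouse lay within the WT range and the other 2 below it, with a log2 fold change of -0.14 ± 0.081 (SE). Eif4e2 (chr1:87213914-87240488, plus strand), which encodes 4EHP, a cap-binding protein that represses translation since it does not join eIF4G, was at 83.48, 75.62 and 71.96 TPM in WT and at 75.9, 79.9 and 72.2 TPM in TSC1-KO. Its TSC1-KO values all lay within the WT range, and its log2 fold change was -0.03 ± 0.078 (SE). Eif4e3 (chr6:99625135-99666771, minus strand), an atypical cap-binding family member, was at 14.1, 11.0 and 10.1 TPM in WT and at 12.68, 13.02 and 7.71 TPM in TSC1-KO, with a log2 fold change of -0.11 ± 0.20 (SE). The sign of the Eif4e2 and Eif4e3 values turned when WT replicate 1 or TSC1-KO replicate 3 was left out, so no direction is given for either gene.

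The balance within the eIF4E family was also compared. Eif4e supplied 62.1 to 68.0% of the summed TPM of the 3 genes in WT and 61.9 to 67.7% in TSC1-KO. The ratio of Eif4e2 to Eif4e TPM was 0.412 to 0.521 in WT and 0.431 to 0.529 in TSC1-KO, and that of Eif4e3 to Eif4e was 0.0580 to 0.0882 and 0.0461 to 0.0863. All 3 ranges overlapped.

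Rps6kb1 (chr11:86498871-86544805, minus strand), which encodes S6K1, the kinase that phosphorylates ribosomal protein S6, was at 52.6, 42.8 and 40.1 TPM in WT and at 54.5, 51.0 and 44.1 TPM in TSC1-KO. The ranges overlapped over most of their length, and the log2 fold change was 0.12 ± 0.10 (SE), which ran from 0.06 without WT replicate 3 to 0.22 without WT replicate 1. Rps6kb1 overlaps the gene Rnft1 on the opposite strand by 155 exon bases, and the kit used does not mark strand. Larp1 (chr11:58009064-58062034, plus strand), the regulator of terminal oligopyrimidine mRNAs, was at 65.0, 54.9 and 49.8 TPM in WT and at 69.2, 73.4 and 58.9 TPM in TSC1-KO. Here 2 of 3 TSC1-KO mice were above every WT mouse and the third lay within the WT range, with a log2 fold change of 0.22 ± 0.10 (SE). The ratio of Larp1 to Rps6kb1 TPM was 1.24 to 1.28 in WT and 1.27 to 1.44 in TSC1-KO, so the groups overlapped in this ratio too.

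As a description, 1 of 8 members, Eif4ebp1, was among the 212 genes with an adjusted p below 0.05 in the fit over all genes (edgeR's quasi-likelihood test, Benjamini-Hochberg). The share over all 13969 genes was 1.52% in either direction, and 0.859% for genes higher in TSC1-KO. The groups did not overlap in log2 CPM for 1 of 8 members, against 22.7% of all genes tested. Since the members were chosen with this comparison known, nothing is read from these counts. The log2 fold changes of the other 7 ran from 0.03 to 0.22 in absolute size, 2 of them above and 5 below 0, and the median over the 8 was -0.07 beside -0.0027 over all genes tested.

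**Figure D3:**
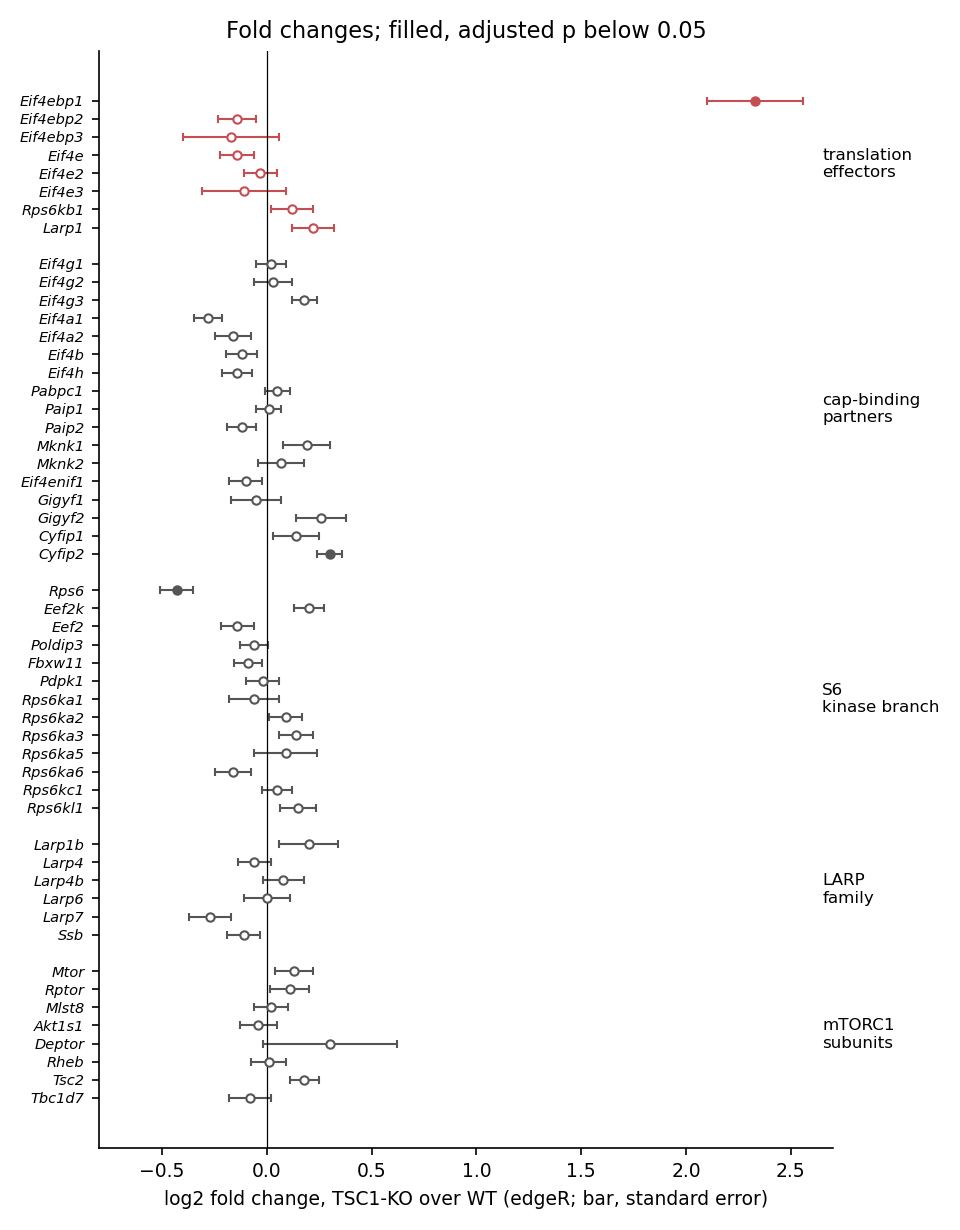
Log2 fold change of TSC1-KO over WT (horizontal axis; bars, standard error) from edgeR for the 8 translation effectors (red) and the 44 tested genes of 4 related lists (grey), where filled symbols passed an adjusted p of 0.05. Eif4ebp1 lies at 2.33, Cyfip2 at 0.30 and Rps6 at -0.43, and the open symbols lie between -0.28 and 0.30.

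The order of the members by level was led by Eif4e in both genotypes. In WT, mean TPM was 168.4 for Eif4e, 77.0 for Eif4e2, 69.2 for Eif4ebp2, 56.6 for Larp1, 45.1 for Rps6kb1, 11.8 for Eif4e3, 7.75 for Eif4ebp1 and 7.28 for Eif4ebp3. In that order the ranges of the mice overlapped between Eif4e2 and Eif4ebp2, Eif4ebp2 and Larp1, Larp1 and Rps6kb1, and Eif4ebp1 and Eif4ebp3. Within each of the 3 WT mice, Eif4e2 was nonetheless above Eif4ebp2, Eif4ebp2 above Larp1 and Larp1 above Rps6kb1, whereas Eif4ebp1 was above Eif4ebp3 in 2 of 3 mice. In TSC1-KO, Eif4ebp1 stood sixth at 40.4 TPM, just below Rps6kb1 at 49.9 TPM, with overlapping ranges though lower within each of the 3 mice, and above Eif4e3 at 11.1 TPM, with ranges apart.

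The transcript length that RSEM assigns to a gene, a mean over its isoforms weighted by their abundance, was not used to choose the members. It was constant for the 6 members with 1 transcript in the annotation and varied for Eif4e2 and Rps6kb1. For Rps6kb1 it was 5367.4, 5339.2 and 5344.7 bases in WT and 5368.5, 5363.6 and 5365.9 bases in TSC1-KO, a difference of 15.6 bases (two-sided exact permutation test, p = 0.30, adjusted p = 0.60 over 2 genes). For Eif4e2 the difference was 31.0 bases (exact permutation p = 0.60, adjusted p = 0.60). With 1 mouse left out in turn, the difference ran from 9.95 bases (without WT replicate 2) to 24 bases (without WT replicate 1) for Rps6kb1 and from 10.6 bases (without TSC1-KO replicate 2) to 65.7 bases (without TSC1-KO replicate 3) for Eif4e2. No difference in isoform mix was detected, and 3 mice against 3 cannot give a p below 0.10.

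The genes around the members were taken from 4 lists. Of 18 partners of the cap-binding complex (eIF4G, eIF4A, eIF4B, eIF4H, poly(A)-binding proteins, MNK kinases, GIGYF proteins and CYFIP proteins), 17 were tested and Eif4e1b was listed at 0 in all mice. One of the 17 was higher, beside 0.859% of all genes higher, and none lower, with a median log2 fold change of 0.02, in a range from -0.28 to 0.30. The gene was Cyfip2, a subunit of the WAVE actin-regulatory complex and paralog of Cyfip1, whose product also binds eIF4E. It was at 161.1, 145.8 and 149.5 TPM in WT and at 192.8, 195.8 and 185.6 TPM in TSC1-KO, with no overlap. The log2 fold change was 0.30 ± 0.061 (SE), with an adjusted p of 0.0479 by edgeR. This call lay at the threshold and was lost with relative log expression scaling (adjusted p = 0.050, edgeR), with upper-quartile scaling (adjusted p = 0.0601, edgeR), without both male mice, and when WT replicate 2, WT replicate 3, TSC1-KO replicate 1 or TSC1-KO replicate 2 was left out, which gave an adjusted p of up to 0.234 (edgeR).

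Of 15 listed genes of the S6 kinase branch (substrates, the upstream kinase PDK1, related S6 kinases, and the genes Btrc and Fbxw11), 13 were in the tables and tested. One was lower and none higher, beside 0.659% of all genes lower, and the median log2 fold change was -0.02. That gene was Rps6, which encodes ribosomal protein S6, the substrate that gives the kinases their name. Rps6 was at 350.8, 383.6 and 391.2 TPM in WT and at 281.0, 273.2 and 299.7 TPM in TSC1-KO. All TSC1-KO mice were below all WT mice, and the log2 fold change was -0.43 ± 0.080 (SE), with an adjusted p of 0.0411 by edgeR. The call was lost when WT replicate 2, WT replicate 3, TSC1-KO replicate 1 or TSC1-KO replicate 2 was left out, with log2 fold changes from -0.50 to -0.38 over all 6 fits with 1 mouse left out. Ribosomal protein genes have near-identical processed copies in the genome, so the Rps6 level is uncertain, although its expected counts were whole in every mouse. Eef2k and Eef2, the elongation factor kinase and its substrate, had log2 fold changes of 0.20 ± 0.072 and -0.14 ± 0.078 (SE) and were not called. Both were named after their values were seen.

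None of the 6 other LARP-family genes and none of the 8 genes of the mTORC1 subunit list, which also holds the upstream regulators Rheb, Tsc2 and Tbc1d7, was called by edgeR. In each of these lists 1 gene had an unadjusted p below 0.05, and DESeq2 and limma called none. The largest log2 fold change among the LARP genes was -0.27 ± 0.10 (SE) for Larp7, a 7SK RNA-binding protein, with an adjusted p of 0.191 by edgeR. In the mTORC1 list it was 0.30 ± 0.32 (SE) for Deptor, an inhibitor of the complex at 1.39 to 2.94 TPM, with an adjusted p of 0.656 by edgeR. The medians were -0.03 and 0.07. The summed TPM of the mTORC1 list was 474.0 to 485.7 in WT and 495.6 to 505.1 in TSC1-KO.

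The genes whose profile lay closest to that of Eif4ebp1 were found by the root-mean-square difference of log2 CPM over the 6 mice, each gene centred on its WT mean. They were Rtp1 (0.312 log2 units), Trim66 (0.322), Sesn2 (0.366), Stc2 (0.420) and Fam107a (0.445), and they are given as a description. Sesn2, which encodes a stress-inducible leucine sensor of the mTORC1 pathway, was at 5.09, 3.84 and 3.61 TPM in WT and at 33.5, 20.5 and 21.7 TPM in TSC1-KO. Stc2, which encodes a secreted glycoprotein, was at 3.56, 3.30 and 3.88 TPM in WT and at 18.4, 11.9 and 9.63 TPM in TSC1-KO. All 5 genes, like Eif4ebp1, had their highest value in TSC1-KO replicate 1. They were picked for a profile near that of Eif4ebp1, so nothing is read from this.

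Trim66, which encodes a tripartite motif protein of chromatin, had a mean of 1.73 ± 0.070 TPM in WT and 6.88 ± 0.977 TPM in TSC1-KO (SD, n = 3). Fam107a, which encodes an actin-associated protein, had 6.54 ± 0.792 TPM in WT and 23.8 ± 5.0 TPM in TSC1-KO (SD, n = 3). Rtp1, an odorant receptor transporter, rested on 2 or 3 reads in each WT mouse and 17 to 37 in the TSC1-KO mice, so its distance is the least certain. On log2(TPM + 1), 4 of the 5 genes were again among the nearest 5, and Rtp1 stood at rank 20.

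**Figure D4:**
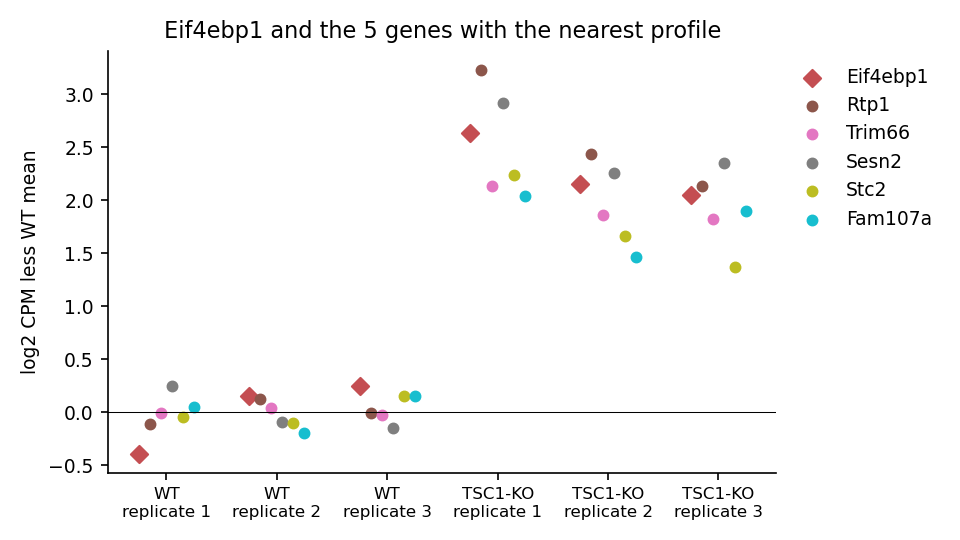
Log2 CPM (counts scaled to the library's total) less the gene's WT mean (vertical axis) in each of the 6 mice, for Eif4ebp1 (red diamonds) and the 5 genes with the nearest profile (circles). In the TSC1-KO mice Eif4ebp1 lies at 2.05 to 2.63 and the other genes at 1.37 to 3.23, and all 6 genes lie between -0.39 and 0.25 in WT.

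The targeted gene, Tsc1, was at 50.2, 32.0 and 28.4 TPM in WT and at 27.1, 21.7 and 22.4 TPM in TSC1-KO. The groups did not overlap, but the log2 fold change of -0.66 ± 0.18 (SE) was not called (adjusted p = 0.10, edgeR). It was called by DESeq2 (adjusted p = 0.00309) and without both male mice (log2 fold change -0.76, adjusted p = 0.0382, edgeR). Without WT replicate 1, which had the highest level, the log2 fold change was -0.40. The gene-level value counts reads from the whole transcript and from cells without Cre. Total counts were 14119365 to 17772865 per mouse and no difference between groups was detected (two-sided exact permutation test, p = 0.60, where the smallest p the design allows is 0.10). Replicate 3 of each group was male by Xist and Ddx3y and the others female. In bulk tissue, fewer cells of a type and less RNA per cell cannot be told apart.

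Summed marker mRNA of several cell types moved with genotype, and its part in the Eif4ebp1 difference was not tested. Markers of the telencephalon such as Emx1 and Neurod6 summed to 1464.7 to 1677.9 TPM in WT and 1542.3 to 1978.5 TPM in TSC1-KO, and 0 of the 7 tested were called by edgeR (2 with an unadjusted p below 0.05, 1 by DESeq2, 0 by limma), while 7 hindbrain and spinal cord Hox genes together reached at most 0.33 TPM in any mouse, with Hoxb2, Hoxb3 and Hoxc4 at 0. The 10 striatal markers summed to 324.4, 380.0 and 449.1 TPM in WT and to 98.95, 111.8 and 249.2 TPM in TSC1-KO. All 10 had a negative log2 fold change (median -1.54), though edgeR called 0 (9 with an unadjusted p below 0.05, 3 called by DESeq2, 4 by limma). The 6 choroid plexus markers summed to 1702.0, 1176.0 and 2473.2 TPM in WT and to 31.8, 110.6 and 867.5 TPM in TSC1-KO, with 0 called by edgeR (6 with an unadjusted p below 0.05, 3 called by DESeq2, 2 by limma). Of 8 interneuron and ventral markers, 5 were called lower by edgeR, beside 0.659% of all genes lower (6 by DESeq2, 5 by limma), and their sum was 846.5 to 953.5 TPM in WT and 394.8 to 657.0 TPM in TSC1-KO.

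TSC1-KO replicate 3 lay nearest to WT in the striatal, choroid plexus and interneuron sums, and its Eif4ebp1 level of 33.2 TPM was the lowest of the TSC1-KO mice and above every WT mouse. Without that mouse the log2 fold change of Eif4ebp1 was 2.45. It was 2.57 without both male mice, a setting added after the data were seen. The libraries also differed by group in the gap between transcript length and RSEM's effective length. It was 45.8 to 49.7 bases in WT and 55.1 to 57.6 bases in TSC1-KO, so it cannot be told apart from genotype. With effective lengths as offsets the log2 fold change of Eif4ebp1 was 2.34. That fit corrects for length alone, and the part of the library difference was not tested.

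The remaining marker lists are given by their sums and counts. Astroglial markers summed to 448.9 to 610.8 TPM in WT and 452.8 to 529.5 TPM in TSC1-KO, with Gfap, the intermediate filament of astrocytes, called higher (log2 fold change 1.09 ± 0.13 SE, adjusted p = 0.00683, edgeR). Of the other 5, Aqp4 and Slc1a2 had log2 fold changes of 0.27 and 0.21, and Gja1, Slc1a3 and Aldh1l1 of -0.69, -0.31 and -0.08, none called. Microglial markers summed to 113.1 to 152.9 and 108.7 to 164.4 TPM, endothelial markers to 172.6 to 231.1 and 146.5 to 176.5 TPM, and stress and dissociation genes to 56.5 to 69.6 and 60.1 to 73.4 TPM. Oligodendrocyte-lineage markers summed to 199.3 to 254.7 TPM in WT and 181.4 to 197.5 TPM in TSC1-KO, diencephalic markers to 10 to 14.87 and 5.62 to 12.9 TPM, and blood genes to 1694.6 to 5567.3 and 1292.5 to 1783.3 TPM. Of the genes tested in these 6 lists, all but the astroglial, edgeR called 0. All 4 blood genes had a negative log2 fold change (4 with an unadjusted p below 0.05, 0 called by DESeq2 or limma), as did 5 of 6 endothelial genes (4 unadjusted, 3 by DESeq2, 0 by limma) and 4 of 7 microglial genes (3 unadjusted, 0 by DESeq2 or limma). So did 5 of 6 oligodendrocyte-lineage genes (2 unadjusted, 2 by DESeq2, 0 by limma), 3 of 4 diencephalic genes (1 unadjusted, 0 by DESeq2 or limma) and 3 of 6 stress genes (1 unadjusted, 0 by DESeq2 or limma). The part of these lists in the values of the translation effectors was not tested.

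**Figure D5:**
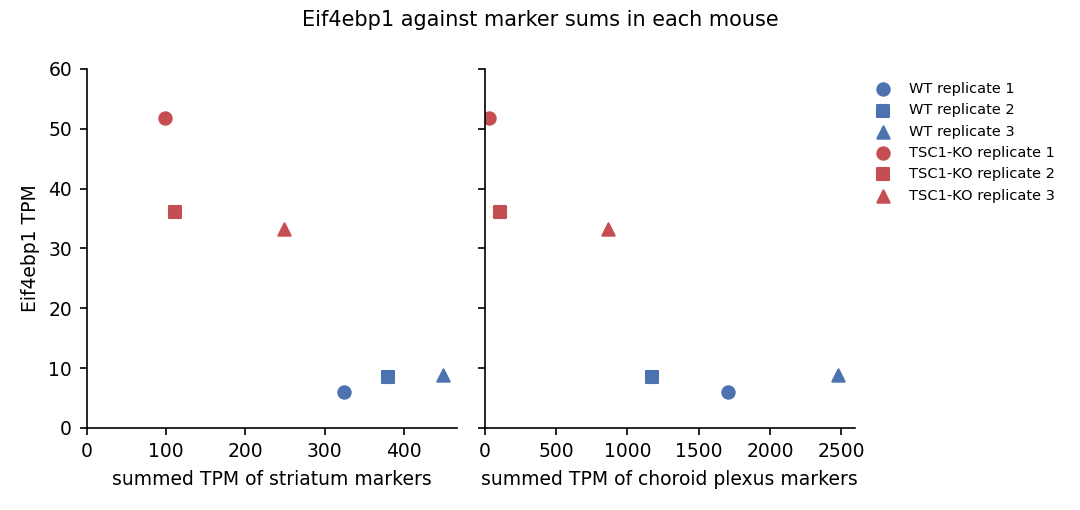
Eif4ebp1 TPM (vertical axis) against the summed TPM of 10 striatal markers (left) and 6 choroid plexus markers (right) in each of 3 WT (blue) and 3 TSC1-KO (red) mice. TSC1-KO replicate 3 lies nearest to WT on both horizontal axes, at 249.2 and 867.5 TPM, and at 33.2 TPM on the vertical axis, above all WT mice.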

How the data were processed

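RNA was sequenced from the telencephalon of 6 mice, 3 WT and 3 TSC1-KO, grouped by genotype label. Per the labels, the authors checked reads with FastQC and quantified genes with RSEM 1.2.12 on mm10. The study's methods name alignment with MapSplice2 and a TruSeq RNA kit, which does not mark strand. Each deposited table holds a gene's expected count, TPM, FPKM, length and effective length. Expected counts were rounded, of which 1.92 to 2.12% were not whole in a library, and those of all 8 members were whole. They were scaled by TMM, filtered by filterByExpr and tested with edgeR 4.0.16 (quasi-likelihood, R 4.3.3), with Benjamini-Hochberg adjustment over 13969 genes and a threshold of 0.05. The deposited TPM give levels, and the deposited FPKM served as an alternative. The study's permutation-based statistic was not rebuilt. DESeq2 1.42.0 and limma 3.58.1 were alternatives. Log2 CPM used a prior count of 2.

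The members and lists were chosen with earlier results of these data known. Named were all members, called genes of each list and its gene with the largest absolute log2 fold change, the 5 genes nearest to Eif4ebp1, Tsc1, and markers as examples. Positions, overlaps and coding sequences are from GENCODE M21 (GRCm38). Shared sequence was measured with 50-base words of GENCODE transcripts. A count of 3 is 0.169 to 0.212 CPM at these depths. P-values of the fits set the group difference against the spread between these mice, and permutation p-values set it against regroupings of the mice. The tests were checked on simulated data. Rps6kb2, Pdcd4, Btrc, Rps6ka4, Emx2, Tcf7l2, Hbb-bs and Hbb-bt were not analysed here. One further marker gene is not reported here.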

Additional observations from a re-analysis of the deposited data

How the results depend on the processing

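The members were chosen on this comparison, so their values under the 16 alternatives are a description and support nothing. The log2 fold change of Eif4ebp1 was 2.13 to 2.45 with 1 mouse left out and 2.23 to 2.57 otherwise. Of 128 log2 fold changes of members under alternatives, 123 kept their direction and side of the threshold and 5 changed sign. Eif4e2 ran from -0.09 to 0.01 and Eif4e3 from -0.25 to 0.09 with 1 mouse left out, and Eif4e3 was 0.02 without both male mice, an alternative added after the data were seen. Deptor ran from -0.05 to 0.54. The count of all genes called, 212, was 346 with no filter, 640 with DESeq2, 434 without both male mice and 29 to 799 with 1 mouse left out, the lowest without WT replicate 2 and the highest without TSC1-KO replicate 3. The 1 cap-binding partner called became 0 with relative log expression or upper-quartile scaling and without both male mice, 2 with DESeq2 and with limma on log2(TPM + 1) or log2(TPM + 0.1), and 0 to 3 with 1 mouse left out. The 1 gene called in the S6 kinase branch became 0 to 1 with 1 mouse left out. The cause of these changes was not tested. With counts in place of TPM, which removes the division by length, the difference in Eif4ebp1 share was 18.5 and in the ratio of 4E-BP to Eif4e mRNA 0.0701. In counts the groups overlapped in that ratio. The replicate numbers are not shown to pair the mice (correlations of deviations 0.267, -0.133 and 0.318), and a replicate block called 551 genes and 2 cap-binding partners, changed no member's call, and called Tsc1 (log2 fold change -0.63, adjusted p = 0.0217, edgeR). The alternatives for the Rps6kb2 share were not run. With 29 to 55 counts for Eif4ebp3 and 3 mice a group, differences of small size were not detectable.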
